A study of Mus musculus with 4 samples.

Results

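Germline piRNA and *Dazl* pathway genes were followed in late 2-cell (2C) mouse embryos cultured with or without Mdivi-1, a small-molecule inhibitor of the mitochondrial fission protein DRP1. The set holds 10 genes, picked by symbol from the 26022 genes of the count table: *Dazl*, *Ddx4*, *Gtsf1*, *Piwil2*, *Tdrd1*, *Tdrd9*, *Tdrkh*, *Mael*, *Asz1* and *Pld6*. All 10 passed the filter on low counts, which left 14259 genes for testing. Embryos in both groups came from superovulated ICR females mated with ICR males, ICR being an outbred strain, and were grown from the zygote in KSOM medium for 16 h. The treated group (2 libraries) had 200 μM Mdivi-1 in the medium, and the control group (2 libraries) had none, with no vehicle stated for embryos. Each library was made from a small pool of whole embryos and amplified by Smart-Seq2, a full-length cDNA method that keeps no strand. Whether replicates stem from separate litters is not stated, so each p-value covers only library-to-library spread, part or all of which could be technical.

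PIWI-interacting RNAs (piRNAs) are small RNAs that guide PIWI proteins to silence transposons in germ cells. They are made in germ granules that sit against mitochondria, and several factors of the pathway are anchored in the mitochondrial outer membrane. Mouse oocytes hold piRNAs too, but they rely mostly on small interfering RNAs made by Dicer, and the pathway is essential in the male germline. *Dazl* acts apart from piRNAs: it encodes an RNA-binding protein that promotes translation of stored germ cell messages and is made in oocytes. Messages of these genes in a 2C embryo can be left from the oocyte or newly transcribed, and counts of a pool of embryos cannot separate the sources, nor can they separate fewer cells with a message from less of it per cell.

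Of the 10 genes, *Dazl*, *Tdrd1* and *Mael* lay higher in both Mdivi-1-treated libraries than in both controls, *Tdrkh*, *Ddx4* and *Tdrd9* lay lower in both, and the groups overlapped for *Gtsf1*, *Piwil2*, *Asz1* and *Pld6*. *Dazl* and *Tdrd1* had the largest fold changes, 2.28-fold and 2.32-fold higher in treated embryos. The set as a whole did not move in one direction, with 5 genes above and 5 below 0 and a median log2 fold change of -0.017, against 0.033 for all genes tested. By edgeR's quasi-likelihood test, 0 of the 10 genes passed an adjusted p of 0.05, as did 0 of all 14259 genes (0%), the lowest adjusted p of any gene being 0.109. An unadjusted p under 0.05 was reached by 2268 genes, 8.27% of all genes being higher and 7.64% lower in treated embryos. Of the 10 genes, 2 were among the higher (*Dazl* and *Tdrd1*) and 0 among the lower. DESeq2, the tool named in the study's methods, called 1 of the 10 higher (*Dazl*) and 0 lower (adjusted p under 0.05 with a change beyond 2-fold), where it called 3.25% of genes higher and 2.73% lower. Both treated libraries lay above both controls in 3 of the 10 genes and in 26.1% of all genes, and below both in 3 of the 10 and in 23.9% of all genes. A positive log2 fold change was found in 51.3% of all genes. The shares of the set for non-overlapping groups and for the sign of the change lie near these, while those by p-value rest on 2 genes or fewer.

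**Figure D1:**
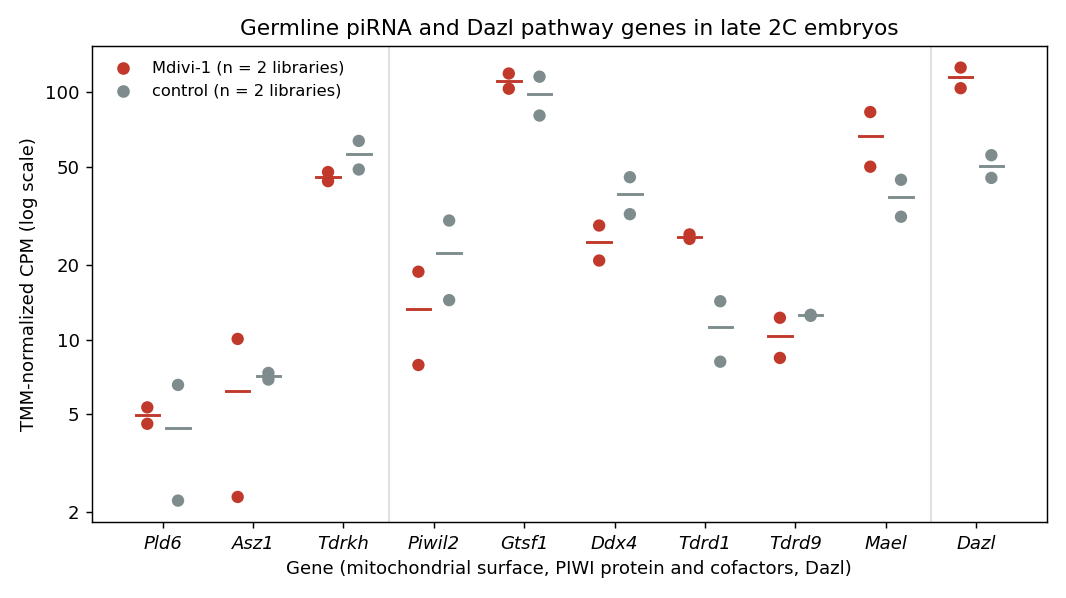
TMM-normalized counts per 1000000 reads (CPM, log scale, y axis) of the 10 genes (x axis), with Mdivi-1-treated libraries in red to the left of control libraries in grey, a dot per library and bars at the group means. *Dazl*, *Tdrd1* and *Mael* show both red dots above both grey dots, while *Asz1* (2.31 and 10.1 CPM when treated) and *Pld6* (6.55 and 2.23 CPM in controls) differ most between libraries of 1 group.

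The raw counts summed to between 17712075 and 20077326 per library, with 14793 to 16311 genes detected, and levels are given as CPM scaled by TMM. Control replicate 2 had the fewest genes detected and the lowest TMM factor, 0.83, against 1.04 to 1.10 in the other libraries. Of 7 markers of 2C embryos tested, all 7 had positive log2 fold changes, against 51.3% of all genes. Both treated libraries lay above both controls in 4 of the 7 and in 26.1% of all genes. The groups overlapped for *Tcstv1*, *Tcstv3* and *Usp17la*. The study itself reports *Zfp352* and *Zscan4d*, which are among the 7, as upregulated in treated late 2C embryos. The summed level of the markers was 1987 and 2412 CPM in treated libraries and 738 and 1284 CPM in controls. The 10 oocyte and maternal markers summed to 3552 and 4582 CPM in treated libraries and 1523 and 3138 CPM in controls, most of it *Oosp1* (2401 and 3198 CPM in treated libraries, 956 and 2368 CPM in controls). Of the 10, 8 lay above 0 on the log2 fold scale (median 0.59), against 51.3% of all genes, and 0 were undetected in every library. Both treated libraries lay above both controls in 4 of the 10 and below both in 1, against 26.1% and 23.9% of all genes. DESeq2 called 2 higher and 0 lower at more than 2-fold, against 3.25% and 2.73% of genes. The 2 were *Bmp15* and *Zp2* (edgeR log2 fold changes 1.84 and 1.38). *Zp3*, which encodes a protein of the egg coat, was the 1 below both. It had 149 and 99.2 CPM in treated libraries and 198 and 270 CPM in controls (log2 fold change -0.91, edgeR adjusted p = 0.253). The 11 cumulus and granulosa cell markers summed to 20.3 and 22.7 CPM in treated libraries and 7.78 and 16.7 CPM in controls. *Amh*, *Ptx3* and *Has2* were at 0 in every library. Only 4 of the 11 passed the filter on low counts, 3 with positive and 1 with a negative log2 fold change. The largest part of the sum was *Tnfaip6*, whose groups overlapped (9.98 and 15.3 CPM in treated libraries, 6.55 and 10.7 CPM in controls). Sperm and spermatid markers summed to 9.88 and 2.76 CPM in treated libraries and 4.10 and 3.87 CPM in controls, with *Tnp2*, *Crisp2* and *Smcp* at 0. Oviduct and blood cell markers gave 62.8 and 62.3 CPM in treated libraries and 72.0 and 72.3 CPM in controls, most of it *Hba-a1*, with *Foxj1* and *Hbb-bs* at 0. The sums for oocyte and 2C markers, and the low sums for cumulus markers, thus ran the same way as *Dazl*, *Tdrd1* and *Mael*. The part of these markers in those results was not tested.

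*Dazl* had the smallest p of the set, and it is the only gene of the set on the study's list of 2C genes. It lies on the minus strand of chromosome 17 from 50279395 to 50293636 (GRCm38, GENCODE M21, ENSMUSG00000010592). Its level was 104 and 126 CPM in Mdivi-1 replicates 1 and 2, against 55.7 and 45.1 CPM in control replicates 1 and 2. Both treated libraries stood well above both controls, and libraries of a group differed by 1.21-fold (treated) and 1.24-fold (control). The means were 115 ± 15.6 CPM in treated and 50.4 ± 7.51 CPM in control embryos (SD, n = 2 libraries each). The log2 fold change was 1.19 (standard error 0.31), with edgeR adjusted p = 0.175 and DESeq2 adjusted p = 0.0276. Leaving out 1 library at a time kept it between 1.02 and 1.34 with edgeR. The DESeq2 call was lost when Mdivi-1 replicate 1 (adjusted p = 0.317), Mdivi-1 replicate 2 (0.435) or control replicate 2 (0.0961) was left out, and it held when control replicate 1 was (0.0149). In such fits 1 group alone sets the spread.

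Over the 4 libraries, the patterns closest to that of *Dazl*, by Euclidean distance of centred log2 CPM among 12367 genes, were those of *Nedd9* (distance 0.060), *Dram2* (0.080) and *Capn3* (0.085). *Nedd9*, which encodes a scaffold protein of focal adhesions, had 38.5 and 48.4 CPM in treated libraries and 21.5 and 17.6 CPM in controls. With 4 points such a match is loose: 366 genes lay within a distance of 0.5.

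*Piwil2*, *Gtsf1*, *Ddx4*, *Tdrd1*, *Tdrd9* and *Mael* encode a PIWI protein and its partners in the germ granule. *Tdrd1*, a protein with tudor domains that binds PIWI proteins through methylated arginines, lies on the plus strand of chromosome 19 from 56826209 to 56870012. It had 26.6 and 25.5 CPM in the treated libraries, against 14.3 and 8.14 CPM in the controls. The treated libraries were nearly equal and both stood above the controls, which differed from each other by 1.76-fold. Means were 26.1 ± 0.765 CPM in treated and 11.2 ± 4.35 CPM in control embryos (SD, n = 2 each), a log2 fold change of 1.22 ± 0.47 (standard error), with an adjusted p of 0.268 by edgeR and 0.222 by DESeq2. It was 0.84 without control replicate 2 and 1.67 without replicate 1.

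*Mael* encodes the maelstrom protein, which acts in transposon silencing, and lies on the minus strand of chromosome 1 from 166201201 to 166238747. Its level was 83.2 and 50.04 CPM in treated libraries, against 31.4 and 44.3 CPM in controls. Mdivi-1 replicate 1 stood well above the rest, and Mdivi-1 replicate 2 lay just above control replicate 2. The log2 fold change was 0.82 ± 0.38 (standard error), with an adjusted p of 0.347 by edgeR and 0.327 by DESeq2. Without Mdivi-1 replicate 1 it was 0.40.

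*Ddx4*, the mouse homolog of *Drosophila* vasa, encodes an RNA helicase that marks germ granules. It lies on the minus strand of chromosome 13 from 112598333 to 112652475. It had 20.9 and 28.9 CPM in treated libraries, against 45.4 and 32.2 CPM in controls. Both treated libraries lay below both controls, with a gap smaller than the spread within either group. Its log2 fold change was -0.64 ± 0.39 (standard error), with an adjusted p of 0.479 by edgeR and 0.524 by DESeq2, and it stayed negative with each library left out, from -0.92 to -0.38.

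*Piwil2* encodes MILI, a PIWI protein that cuts its targets, and lies on the minus strand of chromosome 14 from 70372477 to 70429383. Its level was 7.89 and 18.8 CPM in treated libraries, against 30.3 and 14.4 CPM in controls. The groups overlapped, since Mdivi-1 replicate 2 lay above control replicate 2, and libraries of a group differed by 2.38-fold (treated) and 2.10-fold (control). The log2 fold change of -0.75, the lowest of the set, carried a standard error of 0.59, with an adjusted p of 0.610 by edgeR and 0.630 by DESeq2. With Mdivi-1 replicate 1 or 2 left out it was -0.25 or -1.53, and with control replicate 1 or 2 left out it was -0.12 or -1.21.

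*Gtsf1* encodes a small zinc finger protein that helps PIWI proteins cut their targets, and lies on the minus strand of chromosome 15 from 103402405 to 103430470. It had 119 and 103 CPM in treated libraries, against 80.6 and 116 CPM in controls. The groups overlapped, and the log2 fold change was 0.18 ± 0.32 (standard error), with an adjusted p of 0.850 by edgeR, or -0.064 without control replicate 1. *Tdrd9*, an RNA helicase with a tudor domain, lies on the plus strand of chromosome 12 from 111971559 to 112068854. It had 8.43 and 12.2 CPM in treated libraries, against 12.5 and 12.6 CPM in controls. Only Mdivi-1 replicate 1 stood apart, and the log2 fold change was -0.28 ± 0.53 (standard error), with an adjusted p of 0.867 by edgeR.

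*Tdrkh*, *Asz1* and *Pld6* encode the factors of the set that sit on the mitochondrial outer membrane. None of them passed a test by edgeR or DESeq2. Only *Tdrkh* had groups that did not overlap, with both treated libraries below both controls. Of all genes, 23.9% lay below in this way and 26.1% above. *Tdrkh*, a tudor and KH domain protein that recruits the nuclease trimming piRNA ends, lies on the plus strand of chromosome 3 from 94413273 to 94434668. It had 47.6 and 43.7 CPM in treated libraries, against 63.6 and 48.8 CPM in controls. Control replicate 1 alone was clearly higher, and the log2 fold change was -0.30 ± 0.32 (standard error), with an adjusted p of 0.734 by edgeR and 0.792 by DESeq2, or -0.10 without it. Of its 6142 exonic bases, 2255 overlap exons of *Oaz3* on the opposite strand, and without strand the reads of the shared part cannot be assigned to either gene. *Oaz3* had 10.3 and 9.28 CPM in treated libraries and 9.74 and 17.5 CPM in controls.

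*Asz1* encodes a scaffold with ankyrin repeats that holds germ granule proteins at mitochondria, and lies on the minus strand of chromosome 6 from 18050964 to 18109061. It had 2.31 and 10.1 CPM in treated libraries, against 7.33 and 6.89 CPM in controls. The treated libraries lay on either side of the controls. Their counts were 43 (95% exact Poisson interval 31.1 to 57.9) and 193 (167 to 222), intervals that cover counting error only and do not meet. The log2 fold change was -0.20 ± 0.85 (standard error), with an adjusted p of 0.950 by edgeR, and it was 0.50 without Mdivi-1 replicate 1 but -1.64 without replicate 2 of the same group, so that a single library set its direction.

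*Pld6* encodes a nuclease of the phospholipase D family that is needed to make primary piRNAs, and lies on the minus strand of chromosome 11 from 59783897 to 59787645. It had the lowest mean CPM of the set, at 4.56 and 5.32 CPM in treated libraries, against 6.55 and 2.23 CPM in controls. Both treated libraries fell between the controls, whose counts were 144 (95% exact Poisson interval 121 to 170) and 34 (23.5 to 47.5). The log2 fold change was 0.17 ± 0.91 (standard error), with an adjusted p of 0.964 by edgeR, 1.14 without control replicate 1 but -0.43 without control replicate 2. At this spread, even a change of the size seen for *Dazl* lies within 2 standard errors of 0 for *Pld6* and *Asz1*.

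**Figure D2:**
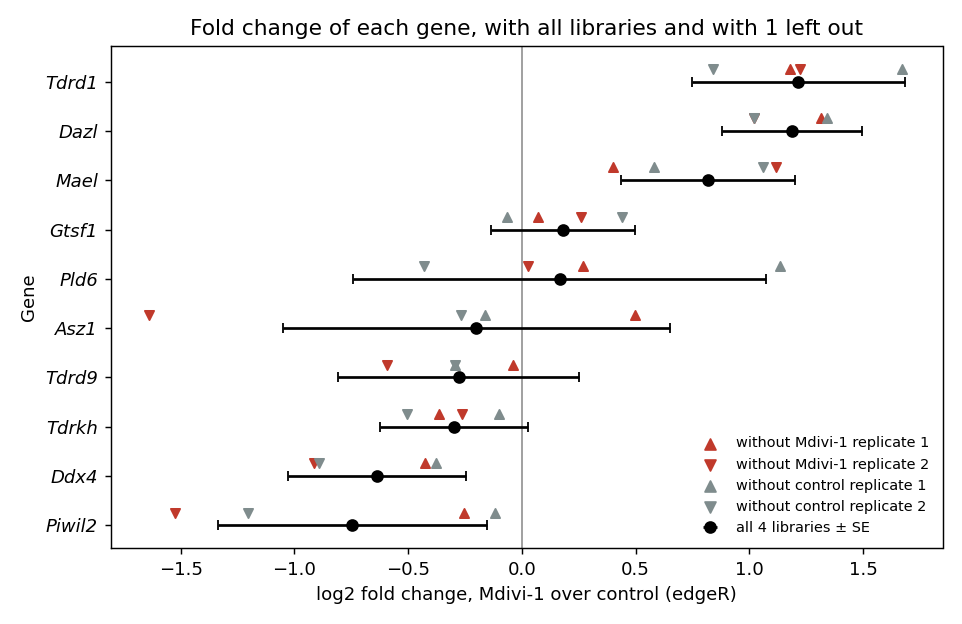
Log2 fold change of Mdivi-1 over control (x axis) for each of the 10 genes (y axis) by edgeR, with black dots and bars for all 4 libraries and their standard error, and triangles for fits that leave out 1 treated (red) or 1 control (grey) library. *Dazl* stays between 1.02 and 1.34, while *Asz1* runs from -1.64 to 0.50 and *Pld6* from -0.43 to 1.14.

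Across genes, levels were compared as CPM per kilobase of exon. In treated embryos *Gtsf1* was the highest at 80.1 ± 8.01 CPM per kb, followed by *Mael* at 38.5 ± 13.6 and *Dazl* at 30.1 ± 4.07 (SD, n = 2 libraries). The libraries of *Mael* and *Dazl* overlapped. *Ddx4* (8.26 CPM per kb) and then *Tdrd1* (4.79) came below them. *Pld6* (2.81), *Piwil2* (2.53), *Asz1* (2.19) and *Tdrd9* (1.91) formed the low end, each overlapping its neighbour. In control embryos *Gtsf1* was again the highest at 70.6 ± 17.9 CPM per kb, with *Mael* at 21.8 ± 5.26 and *Dazl* at 13.2 ± 1.97. There *Dazl* overlapped with *Ddx4* (12.9 CPM per kb), *Piwil2* had 4.23, and *Asz1* (2.51), *Pld6* (1.27 to 3.73), *Tdrd9* (2.31) and *Tdrd1* (2.06) each overlapped the next. The place of *Tdrkh* depended on the length used, since reads in the part shared with *Oaz3* may not have been counted. Over all exonic bases it had 7.44 CPM per kb in treated embryos, overlapping *Ddx4*, and 9.15 in controls, below both libraries of *Ddx4*. Over the 3887 bases not shared it had 11.7 CPM per kb in treated embryos, above both libraries of *Ddx4*, and 14.5 in controls, overlapping both *Dazl* and *Ddx4*. With either length *Tdrd1* held place 6 of 10 in treated embryos and place 10 of 10 in controls, and *Ddx4*, level with *Dazl* in controls, lay below it in both treated libraries. Summed over the set, levels were 425 and 424 CPM in treated libraries and 348 and 330 CPM in controls, while the median log2 CPM was 4.56 and 4.76 in treated libraries and 4.95 and 4.43 in controls. The sum was higher in both treated libraries, where *Dazl* alone added most of the difference, and the median was not.

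Promoters of germline genes are often rich in CpG, and in somatic cells many are held silent by DNA methylation and by a Polycomb complex that binds the E-box CACGTG through MGA and MAX. RefSeq start sites (GRCm38.p6) gave 12 windows, from 250 bases before to 50 after a start, for 9 of the 10 genes, *Piwil2* being the gene without one. The windows held 3 to 38 CpG, and 11 of 12 were above the median of 7 over all 32851 windows. CACGTG, which reads the same on both strands, was found in 6 of the 12 windows and in 7.15% of all windows. The 6 belong to 5 genes: *Tdrd1*, with 2 overlapping windows that share the same site, *Mael*, *Ddx4*, *Tdrd9* and *Pld6*. All windows were not matched to these in CpG content, and CACGTG itself holds a CG, so the shares are not directly comparable. The windows of the genes with both treated libraries above both controls, and of *Ddx4*, the gene with the lowest log2 fold change among those with both below, are given 5′ to 3′ with each CG in capitals.
Dazl: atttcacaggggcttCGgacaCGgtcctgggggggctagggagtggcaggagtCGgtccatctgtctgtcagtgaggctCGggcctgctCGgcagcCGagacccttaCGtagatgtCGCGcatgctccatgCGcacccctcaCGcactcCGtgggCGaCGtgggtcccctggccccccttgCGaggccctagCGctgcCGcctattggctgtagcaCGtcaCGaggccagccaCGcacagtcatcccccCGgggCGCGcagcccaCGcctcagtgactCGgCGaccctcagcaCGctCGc
Tdrd1: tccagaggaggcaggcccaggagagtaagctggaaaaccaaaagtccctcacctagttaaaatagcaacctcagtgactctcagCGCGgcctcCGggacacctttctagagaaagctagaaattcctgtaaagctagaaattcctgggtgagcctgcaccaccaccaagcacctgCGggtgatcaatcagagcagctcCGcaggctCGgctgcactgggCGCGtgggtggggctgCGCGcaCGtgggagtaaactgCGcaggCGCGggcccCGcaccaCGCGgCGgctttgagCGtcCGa
Mael: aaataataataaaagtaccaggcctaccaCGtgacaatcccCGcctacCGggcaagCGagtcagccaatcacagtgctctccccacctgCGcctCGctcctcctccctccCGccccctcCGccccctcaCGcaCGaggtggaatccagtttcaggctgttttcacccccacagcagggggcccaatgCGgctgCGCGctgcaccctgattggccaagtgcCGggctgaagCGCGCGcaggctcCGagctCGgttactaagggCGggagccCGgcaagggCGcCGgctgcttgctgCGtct
Ddx4: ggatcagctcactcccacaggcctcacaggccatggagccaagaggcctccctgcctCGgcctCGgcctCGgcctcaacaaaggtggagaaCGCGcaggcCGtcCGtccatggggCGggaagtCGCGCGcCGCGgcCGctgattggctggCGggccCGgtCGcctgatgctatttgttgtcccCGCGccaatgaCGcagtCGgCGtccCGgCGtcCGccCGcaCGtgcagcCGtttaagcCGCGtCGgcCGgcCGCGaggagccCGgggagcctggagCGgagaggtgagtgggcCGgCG
The *Dazl* window (chr17:50293571-50293870, minus strand) held 28 CpG and no CACGTG. That of *Tdrd1* (chr19:56825959-56826258, plus strand, the most upstream of its 3) held 20 CpG, and its CACGTG began 11 bases before the start. *Mael* (chr1:166238695-166238994, minus strand) had 24 CpG, with CACGTG 223 bases before the start. *Ddx4* (chr13:112652261-112652560, minus strand) had 38 CpG, the most of the 12 windows, with CACGTG 29 bases before the start. The windows printed were picked by direction of change, so both directions among them follow from the choice. The relation of CpG content and the E-box to the fold changes was not tested. A match of letters does not show that a protein binds there.

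Of 23 other piRNA pathway genes, 17 were tested, 6 lying above and 11 below 0 in log2 fold change (median -0.40), and 0 passed the edgeR adjusted threshold. At an unadjusted p under 0.05 by edgeR, 0 were higher and 1 lower, against 8.27% and 7.64% of all genes. DESeq2 called 0 at more than 2-fold, where it called 3.25% of genes higher and 2.73% lower. *Piwil4* was at 0 in every library. *Btbd18*, a nuclear factor for transcription of piRNA clusters in mouse testis, had 109 and 71.9 CPM in treated libraries, against 194 and 136 CPM in controls (log2 fold change -0.87, edgeR adjusted p = 0.279). *Pnldc1*, the nuclease that trims piRNA ends together with *Tdrkh*, had 7.68 and 27.5 CPM in treated libraries, against 49.3 and 38.3 CPM in controls (log2 fold change -1.32, edgeR adjusted p = 0.330). *Tdrd12* and *Rnf17*, both with tudor domains, had log2 fold changes of 0.87 and -0.66. *Btbd18*, *Pnldc1* and *Rnf17* had both treated libraries below both controls, and *Tdrd12* had both above. These genes were named for the smallest p, a pick that favours groups without overlap. Of the 17 tested, 7 had both treated libraries below both controls and 4 had both above, against 23.9% and 26.1% of all genes.

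All 22 translational regulators of germ cells and oocytes were tested, with 10 positive and 12 negative log2 fold changes (median -0.17) and 0 edgeR calls. At an unadjusted p under 0.05 by edgeR, 1 was higher and 3 lower, against 8.27% and 7.64% of all genes. DESeq2 called 1 higher and 0 lower at more than 2-fold, against 3.25% and 2.73% of genes. The gene called by DESeq2 was *Btg4*, an adaptor of the CCR4-NOT deadenylase that removes maternal messages. It had 1650 and 3614 CPM in treated libraries and 380 and 656 CPM in controls. Its log2 fold change was 2.35 (edgeR adjusted p = 0.150, DESeq2 adjusted p = 4.0e-06). *Nanos3*, an RNA-binding protein of primordial germ cells, had 3.27 and 2.35 CPM in treated libraries and 9.28 and 14.2 CPM in controls (log2 fold change -2.06, edgeR adjusted p = 0.232). *Pabpc1*, a poly(A)-binding protein, and *Zar1l*, an oocyte RNA-binding protein, had log2 fold changes of -0.85 and -1.22. *Boll*, the other autosomal gene of the *Dazl* family, had under 2 CPM in each library; it was named for its family, outside the rule on p.

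Of 23 germline genes known to be silenced by promoter methylation in somatic cells, all 23 were tested, with 12 positive and 11 negative log2 fold changes (median 0.020). Again 0 passed the edgeR threshold. At an unadjusted p under 0.05 by edgeR, 3 were higher and 1 lower, against 8.27% and 7.64% of all genes. DESeq2 called 0 at more than 2-fold, where it called 3.25% of genes higher and 2.73% lower. *Msh4*, a meiotic protein of the mismatch repair family, had 17.4 and 41.1 CPM in treated libraries and 9.88 and 9.58 CPM in controls (log2 fold change 1.59, edgeR adjusted p = 0.224). *Brdt*, a bromodomain protein of the testis, had 775 and 1002 CPM in treated libraries and 504 and 410 CPM in controls (log2 fold change 0.96, edgeR adjusted p = 0.228, DESeq2 adjusted p = 0.0340). *Meioc* and *Tex101* had log2 fold changes of 0.84 and -1.31.

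Of the small interfering RNA and microRNA pathway genes, 13 were tested, with 9 positive and 4 negative log2 fold changes (median 0.16). By edgeR, 0 had an adjusted p or even an unadjusted p under 0.05. Of all genes, 8.27% were higher and 7.64% lower at that unadjusted p. DESeq2 also called 0 at more than 2-fold, where it called 3.25% of genes higher and 2.73% lower. *Dicer1* had 85.2 and 128 CPM in treated libraries and 131 and 70.5 CPM in controls, so the groups overlapped; it was likewise named outside that rule, with its values seen. *Ago2*, the Argonaute that cuts targets, had 71.2 and 57.6 CPM in treated libraries and 48.3 and 31.0 CPM in controls (log2 fold change 0.70, edgeR adjusted p = 0.384). *Tnrc6b* and *Tnrc6a*, scaffolds of Argonaute complexes, had log2 fold changes of 0.85 and 1.27, and *Ago1* had 2.16 at under 10 CPM in each library.

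**Figure D3:**
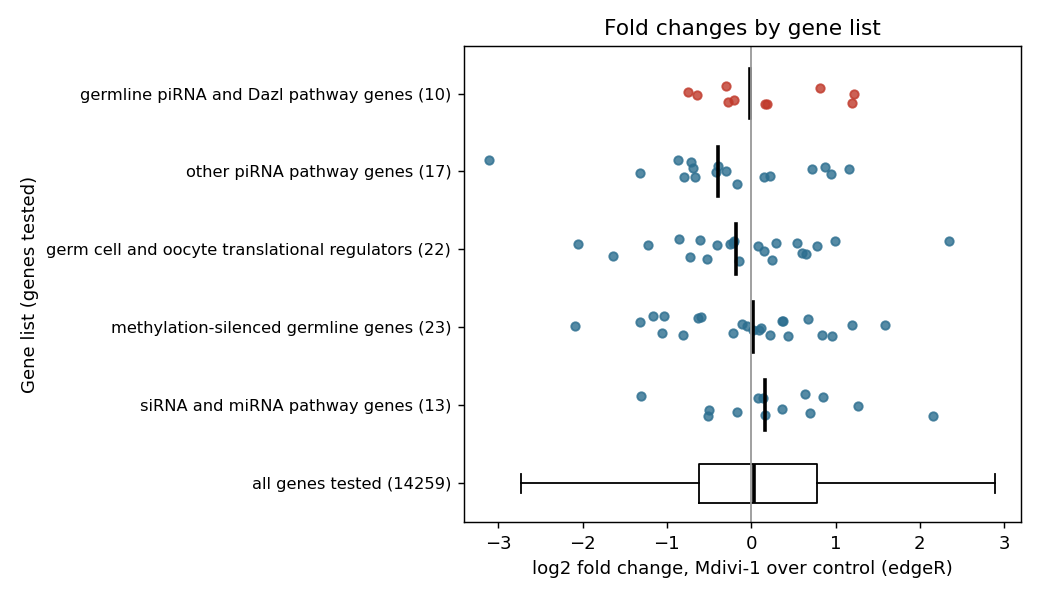
Log2 fold change of Mdivi-1 over control (x axis) of each tested gene, as a dot, in the 10-gene set (red) and 4 lists of related genes (blue; number tested in brackets), with black bars at medians, and of all 14259 genes as a box of the quartiles without outliers. The medians are -0.017 for the set, -0.40 for other piRNA pathway genes, -0.17 for translational regulators, 0.020 for methylation-silenced germline genes, 0.16 for small interfering RNA and microRNA genes and 0.033 for all genes.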

How the data were processed

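RNA of late 2C embryos was measured in 2 Mdivi-1-treated and 2 control libraries. The authors removed adapters (cutadapt 1.16), aligned to the mouse genome (STAR; GENCODE M23, and mm10 in the submitters' processing notes) and obtained a read count for each gene over its exons. The deposited table holds these raw counts, the same counts divided by size factors, and the authors' DESeq2 fold changes and p-values. Only the raw counts were used. STAR's gene counting leaves out reads that map to several places or cannot be assigned to 1 gene.

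Genes were kept by filterByExpr (minimum count 10) of edgeR 4.0.16, scaled by TMM and tested with the quasi-likelihood test, two-sided, with Benjamini-Hochberg adjustment over 14259 genes in R 4.3.3. Standard errors were worked back from this test. The common biological coefficient of variation was 0.66. DESeq2 1.42.0 was run on the same genes, and gave no adjusted p for 277 of them. Alternatives were other scalings, filters and tests (with limma-voom of limma 3.58.1), a replicate block and each library left out. DESeq2 with each library left out was chosen after seeing the data. Coordinates and exonic lengths are from GENCODE M21 (GRCm38), matched by Ensembl ID, since those in the table are not of this build. Levels per kilobase divide by the union of exons, and for *Tdrkh* also, as chosen after seeing the data, by the bases not shared with another gene.

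The members and gene lists were chosen with earlier results of these data known. Named genes are the 10 members, the 4 genes of each pathway list with the smallest p, and the 3 genes closest to *Dazl* in pattern. *Dux*, *Prm1*, *Tdrd15* and *Spocd1* of the lists were not analysed here.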

Additional observations from a re-analysis of the deposited data

How the results depend on the processing

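For the 10 genes, 0 passed an adjusted p of 0.05 under other scalings, a filter of at least 1 CPM in 2 libraries, limma-voom and the replicate block. DESeq2, the edgeR likelihood ratio test and the quasi-likelihood fit with no filter on low counts each called 1, *Dazl* (adjusted p = 0.0276, 0.0261 and 0.0359), and over all 16 alternatives its adjusted p ran from 0.0149 to 0.536, with a positive log2 fold change in each. Over all genes, 853 passed with DESeq2, 202 with limma-voom, 870 with the likelihood ratio test and 819 with no filter, against 0 in the fit reported. With 1 library left out, edgeR called between 0 (without Mdivi-1 replicate 1) and 803 (without control replicate 1). DESeq2 then called 1380 without control replicate 1, 771 without control replicate 2, 82 without Mdivi-1 replicate 1 and 202 without Mdivi-1 replicate 2. With 1 library left out, the 10 genes had between 0 and 1 calls, and their median log2 fold change ran from -0.28 to 0.17. In such fits the lone library is assumed to vary like the other group.

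Of the 16 alternatives, only those with 1 library left out turned a direction, and only for 3 genes. *Gtsf1* (-0.064 to 0.44 by edgeR) turned without control replicate 1, where DESeq2 gave -0.10. *Pld6* (-0.43 to 1.14) turned without control replicate 2, and *Asz1* (-1.64 to 0.50) without Mdivi-1 replicate 1, where DESeq2 also gave -0.43 and 0.50. The cause was not tested. Scaling by library totals moved the median log2 fold change of all genes by 0.107, to 0.14, and that of the 10 genes to 0.047.

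Whether same-numbered libraries shared a litter or a day is not stated. Their deviations from the group means had a correlation of 0.0046 over all genes, which with 2 libraries per group cannot settle it. With the replicate block the median of the 10 genes was -0.043 and 2041 genes had an unadjusted p under 0.05, against 2268 without it.

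*Pld6* and *Asz1* had 34 to 193 counts per library. The Poisson intervals of the *Pld6* controls did not meet, nor did those of the treated *Asz1* libraries, so these libraries differed by more than counting error. The intervals are of raw counts, not scaled for library size. Such spread was not particular to these genes. Across genes, the chi-square of counts per degree of freedom was 115 between controls and 52.9 between treated libraries, far beyond counting error.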
